A study of Mus musculus with 33 samples.

Results

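The genes described are 37 mouse genes of the cell cycle and of DNA replication, taken by name from a list and looked up by symbol in the 4 deposited expression tables. The names were given with earlier results of these data known, and the rule itself uses no measured value. The 3 tongue tables, of 27825 genes each, hold 36 of the 37, and the table of sorted cells, of 25965 genes, holds all 37; Cdt1 was not analysed in the tongues. The genes were grouped by role as 8 of replication licensing and the MCM helicase, 5 of nucleotide synthesis and the sliding clamp, 7 cyclins, kinases and a transcription factor of G1 and the G1/S step, 8 cyclins, kinases and regulators of S, G2 and M phase, 7 of the spindle, kinetochore and checkpoint, and 2 chromatin proteins that mark cycling cells, Mki67 and Top2a.

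Whole tongues were collected from wild-type mice and from mice with a knockout of Zac1o, in the embryo at E13.5 (E gives days of gestation), at birth (P0) and at postnatal day 20 (P20), with 3 biological replicate libraries for each genotype and stage. Zac1, listed as Plagl1 in the tables, is an imprinted gene for a zinc finger transcription factor. It is normally read from a single parental allele, and the knockout animals are labelled as expressing it from both, so they are called biallelic here. The second tissue was rib cartilage of E18.5 embryos of the same genotypes, from which about 2000 live cells positive for Cd24a and Cd200, labelled as prehypertrophic chondrocytes, were sorted per sample. Its 11 numbered samples, 6 biallelic (1 to 6) and 5 wild type (7 to 11), are called animals here, although the labels do not say that each came from 1 embryo. Tongue RNA was depleted of ribosomal RNA, and it was extracted with the AllPrep kit at E13.5 and with TRIsure at P0 and P20, so kit and stage cannot be told apart between E13.5 and P0. The chondrocyte libraries were made from polyA RNA by SMART-seq2, and biallelic animals 1 to 4 have 2 labelled libraries each but 1 value per gene. The labels call the tongue replicates biological without naming separate animals, so p-values measure only the spread between these samples. The sources used here do not give strain or sex, nor whether a tongue library holds 1 tongue or several.

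A dividing cell commits to the cycle in G1, when D-type cyclins with Cdk4 and cyclin E with Cdk2 release E2F transcription factors from the retinoblastoma proteins. E2F then switches on the genes for loading the MCM helicase and for making nucleotides, while the genes of mitosis, whose proteins build the spindle and segregate the chromosomes, are switched on later in G2 through separate promoter elements, CCAAT boxes, which NF-Y binds, and the cell cycle genes homology region (CHR), which the MuvB complex binds. In the tongue, proliferating myoblasts, mesenchyme and epithelium make up the embryonic organ, and muscle fibres that have left the cycle make up most of the mature one. In growth cartilage, chondrocytes divide before they become prehypertrophic and then leave the cycle.

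Promoter sequences are shown for 6 members, chosen after their motifs were seen, because they carry the letters that these early and late waves are known for: Mcm6 and Rrm1 for the S-phase side, Cdc20 and Kif11 for mitosis, and Top2a and Mki67 for the chromatin proteins that are used most as markers. Each is given 5′ to 3′ on the strand of the gene, as RefSeq has it on GRCm38.p6, up to the annotated start, in lower case; that of Cdc20 leaves out the last 9 bases, which hold a second CCAAT match that begins 8 bases before the start. Capitals mark the letters searched, on either strand. For E2F these were TTCCCGC and, as a second form, TTGGCGC. The box bound by NF-Y was searched as CCAAT, and the homology region bound by MuvB as TTTGAA. The windows are chr1:128359706-128359905 on the minus strand, chr7:102441495-102441694 on the plus strand, chr4:118437353-118437543 on the minus strand, chr19:37376182-37376381 on the plus strand, chr11:99024190-99024389 on the minus strand and chr7:135716380-135716579 on the minus strand.
Mcm6: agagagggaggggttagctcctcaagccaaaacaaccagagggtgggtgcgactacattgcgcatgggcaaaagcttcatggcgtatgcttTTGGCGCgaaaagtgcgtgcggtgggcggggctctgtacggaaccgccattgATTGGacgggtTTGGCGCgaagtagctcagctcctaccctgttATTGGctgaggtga
Rrm1: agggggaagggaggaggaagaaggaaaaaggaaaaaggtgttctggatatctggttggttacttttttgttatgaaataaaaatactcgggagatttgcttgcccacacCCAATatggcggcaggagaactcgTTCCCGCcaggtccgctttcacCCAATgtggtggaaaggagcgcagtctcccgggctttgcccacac
Cdc20: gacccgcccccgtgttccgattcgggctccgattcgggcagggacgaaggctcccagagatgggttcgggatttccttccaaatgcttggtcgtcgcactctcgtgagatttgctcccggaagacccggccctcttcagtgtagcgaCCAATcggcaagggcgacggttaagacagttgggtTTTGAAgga
Kif11: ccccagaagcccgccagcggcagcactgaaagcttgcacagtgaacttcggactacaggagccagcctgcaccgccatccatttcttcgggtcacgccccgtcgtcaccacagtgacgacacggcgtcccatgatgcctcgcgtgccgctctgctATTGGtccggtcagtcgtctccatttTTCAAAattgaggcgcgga
Top2a: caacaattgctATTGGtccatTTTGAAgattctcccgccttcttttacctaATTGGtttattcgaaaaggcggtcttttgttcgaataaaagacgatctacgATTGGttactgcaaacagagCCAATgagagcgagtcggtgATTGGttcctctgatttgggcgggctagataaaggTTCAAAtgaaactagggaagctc
Mki67: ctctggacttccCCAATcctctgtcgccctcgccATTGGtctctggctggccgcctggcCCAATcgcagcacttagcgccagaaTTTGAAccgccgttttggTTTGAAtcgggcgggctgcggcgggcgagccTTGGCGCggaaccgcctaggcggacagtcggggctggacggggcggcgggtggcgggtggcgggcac

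RefSeq windows from 250 bases before to 50 after the start were at hand for 30 of the 37 members; Mcm4, Ccnd1, Ccnd2, Ccne2, Ccna2, Aurkb and Kif20a had none. E2F letters stood in 6 of the 7 licensing genes with a window, in 1 of the 5 nucleotide and clamp genes and in 3 of the 14 genes of S/G2/M, spindle and chromatin, against 7.79% of all 27025 genes with a window. CHR letters stood in 10 of those 14 genes and in 1 of the 12 licensing and nucleotide genes, against 20.2% of all genes. CCAAT stood in 13 of the 14 and in 8 of the 12, against 41.1% of all genes. In Ccnb1 and Mcm7, matches of different motifs shared letters, as TTGGCGC can with the reverse of CCAAT. A match is a string of letters, not a bound site.

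The tongue libraries held 36832717 to 92249098 reads and the chondrocyte libraries 2938462 to 15689559, recovered from the steps of the deposited values. A count of 3 reads is worth 0.0325 to 0.0814 RPM (the reads of a gene scaled to the total of its library) in a tongue library and 0.191 to 1.02 RPM in a chondrocyte library, so a level below about 1 RPM is a reading in the tongues but close to this limit in the shallowest sorted sample. Plagl1 separated the genotypes as labelled in each table: it stood at 66.1 to 105 RPM in wild type and 157 to 275 in biallelic tongues at E13.5, at 221 to 243 and 430 to 499 at P0, at 23.1 to 30.5 and 50.9 to 77.1 at P20, and at 3.18 to 15.3 and 17.6 to 49.99 in the sorted cells. On the first principal component, biallelic library 3 stood apart at E13.5 and at P20, wild-type 2 and biallelic 1 at P0, and wild-type animals 7, 8 and 9 among the sorted cells. Muscle fibre markers, 8 of 8 detected, summed to 364 to 640 RPM in the E13.5 tongues, 24459 to 30573 at P0 and 19638 to 31565 at P20. In the sorted cells, 14 of 15 listed chondrocyte markers were in the table and summed to 243 to 1066 RPM, with Col2a1 highest, the 7 prehypertrophic markers, which include the sorted Cd24a and Cd200, summed to 42.0 to 83.6 RPM, with Panx3 at 0 in every wild-type animal, and 8 macrophage markers, led by Lyz2 and Csf1r, summed to 2070 to 3247 RPM. Most of the prehypertrophic sum came from the sorted Cd24a and Cd200. Their means were 48.7 and 15.5 RPM in biallelic and 40.7 and 12.55 RPM in wild-type animals. The sorted cells are called chondrocytes by their label, and macrophage and neutrophil RNA was measured in each sample of them. Both of these marker sums lay above the chondrocyte marker sum in every sample, although sums of different lists do not give shares of cells. The members' levels are therefore those of all cells in a sorted sample, not of chondrocytes alone.

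**Figure D1:**
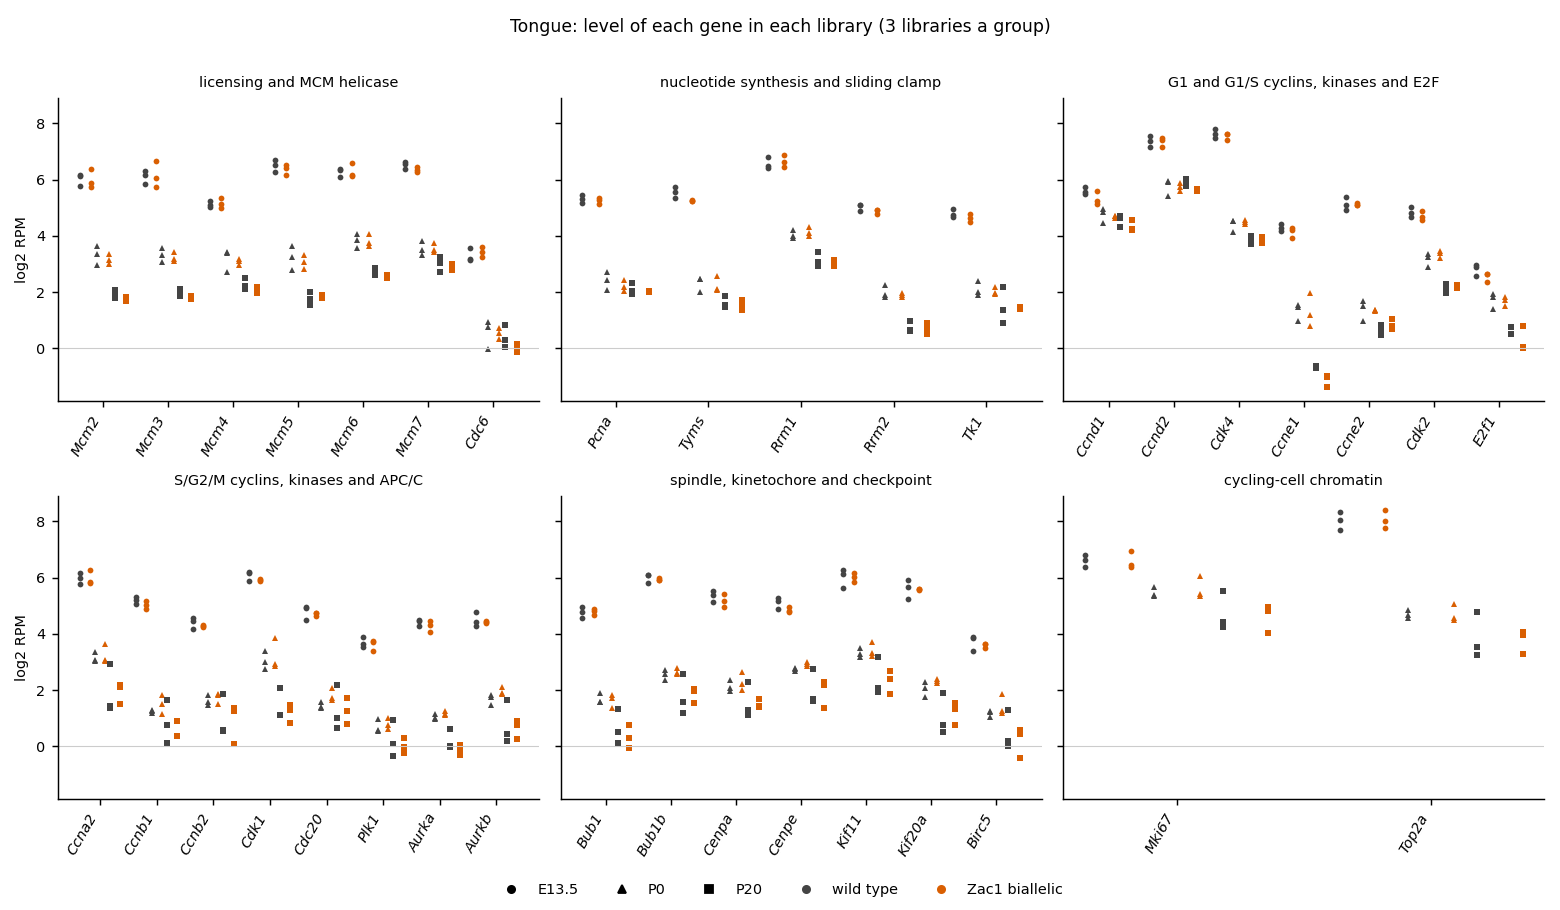
Level of each of the 36 genes in each tongue library, as log2 RPM on the vertical axis, in panels by role; circles are E13.5, triangles P0 and squares P20, grey wild type and orange biallelic, with 3 libraries a group. The P0 symbols lie below the E13.5 symbols for every gene, by a median of 2.85 on the log2 scale in wild type, and Ccnd1 moves least.

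Between E13.5 and birth the whole set fell. In wild-type tongues, 36 of 36 members were lower at P0 (limma with a mean-variance trend, Benjamini-Hochberg adjusted p under 0.05 over 13663 genes), where 39.9% of all genes tested were called lower and 37.9% higher. The median change of the members was -2.85 on the log2 scale, a 7.23-fold drop, beside a median of -0.04 over all genes. The summed level of the 36 genes was 2392, 1823 and 2149 RPM in the E13.5 libraries and 409, 316 and 364 RPM at P0. These are whole tongues scaled to the reads of each library, so fewer cycling cells and less of each RNA per cell cannot be told apart, and the RNA kit changed between these stages.

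The licensing genes load and form the MCM2-7 helicase on origins. Mcm5 (chr8:75109528-75128439, plus strand), a helicase subunit, was at 103, 76.4 and 91.2 RPM in the wild-type E13.5 libraries and at 12.4, 6.95 and 9.58 RPM at P0. It fell by 3.25 ± 0.19 on the log2 scale (9.54-fold lower, adjusted p = 2.2e-10), the largest change of this role group. Mcm4, another subunit, changed least, from 38.01, 32.8 and 34.2 RPM to 10.7, 6.63 and 10.4 RPM, and fell by 1.95 ± 0.17 on the log2 scale (3.87-fold lower, adjusted p = 1.57e-08). For both genes every P0 library lay below every E13.5 library, and the other 5 genes, Mcm2, Mcm3, Mcm6, Mcm7 and the loader Cdc6, fell by 2.43 to 2.97. The median over the 7 was -2.75.

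Among the enzymes that make deoxynucleotides, Tyms, the thymidylate synthase, was at 53.2, 40.3 and 46.6 RPM at E13.5 and 5.57, 4.04 and 5.52 RPM at P0, and fell by 3.22 ± 0.17 on the log2 scale (9.30-fold lower, adjusted p = 7.48e-11). Rrm1, the large subunit of ribonucleotide reductase, was at 112, 86.0 and 89.5 RPM and then 18.4, 15.2 and 16.0 RPM, and fell by 2.53 ± 0.15 on the log2 scale (5.77-fold lower, adjusted p = 2.12e-10), the smallest change of this group. No P0 library reached an E13.5 library for either gene. The small reductase subunit Rrm2, the salvage kinase Tk1 and the sliding clamp Pcna fell by 3.04, 2.69 and 2.89, and the 5 genes had a median of -2.89. Tk1 overlaps Syngr2 on the opposite strand, and Mcm7, Ccnd1, Cdk4, Ccne2, Ccna2, Cdc20, Kif20a and Top2a also overlap genes on the opposite strand. Whether the counting used strand is not known from the sources used here. Cdt1, with values in the sorted cells only, lies within Gm20388 on the same strand, which a strand setting would not separate.

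The G1 genes moved unequally. Ccne2, a cyclin E, was at 41.5, 30.1 and 34.6 RPM at E13.5 and 3.18, 1.96 and 2.83 RPM at P0, and fell by 3.75 ± 0.18 on the log2 scale (13.48-fold lower, adjusted p = 1.85e-11). Cdk4, the kinase partner of the D cyclins, went from 225, 179 and 199 RPM to 23.0, 17.7 and 22.9 RPM and fell by 3.25 ± 0.12 on the log2 scale (9.50-fold lower, adjusted p = 1.71e-12), the smallest adjusted p of the set. Its partners changed less. Ccnd1, cyclin D1 (chr7:144929931-144939869, minus strand), was at 44.7, 47.0 and 52.9 RPM and then 31.3, 21.9 and 29.2 RPM, and fell by 0.83 ± 0.15 on the log2 scale (1.77-fold lower, adjusted p = 0.000107). Ccnd2, cyclin D2 (chr6:127125779-127151048, minus strand), was at 189, 141 and 167 RPM and then 60.4, 43.0 and 61.5 RPM, and fell by 1.60 ± 0.14 on the log2 scale (3.03-fold lower, adjusted p = 3.28e-08). The E13.5 and P0 libraries did not overlap for either cyclin. E2f1, the transcription factor, fell by 1.09 ± 0.22 on the log2 scale (2.13-fold lower, adjusted p = 0.000256), Cdk2 fell by 1.67 and Ccne1 by 2.96; the median over the 7 genes was -1.67.

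The regulators of S, G2 and M phase held the largest drop of the set. Ccnb1, cyclin B1 (chr13:100778650-100786570, minus strand), which drives entry into mitosis with Cdk1, was at 37.1, 33.4 and 40.2 RPM at E13.5 and 2.26, 2.39 and 2.43 RPM at P0. It fell by 3.96 ± 0.28 on the log2 scale (15.6-fold lower, adjusted p = 1.97e-09). The P0 values lay close together, all far below the lowest E13.5 value. Its paralog Ccnb2 changed least in this group, by -2.76, and Cdk1 itself, at 70.9, 59.3 and 73.3 RPM and then 8.10, 10.5 and 6.81 RPM, fell by 3.02. Cdc20, the activator of the anaphase-promoting complex whose promoter is shown above, fell by 3.34, and the changes of the mitotic kinases Aurka, Plk1 and Aurkb were -3.38, -2.997 and -2.80. The median over the 8 was -3.01.

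Of the spindle and kinetochore genes, Kif20a, a kinesin of the central spindle, was at 60.05, 38.2 and 50.7 RPM and then 4.84, 3.41 and 4.17 RPM, and fell by 3.58 ± 0.29 on the log2 scale (11.9-fold lower, adjusted p = 8.27e-09). Cenpe, a kinetochore motor, was at 38.4, 29.7 and 35.6 RPM and then 6.88, 6.44 and 6.79 RPM, and fell by 2.36 ± 0.25 on the log2 scale (5.13-fold lower, adjusted p = 2.75e-07), the smallest change of the 7. Bub1b and Bub1 of the spindle checkpoint fell by 3.46 and 3.09, the centromeric histone Cenpa by 3.22, the bipolar kinesin Kif11 by 2.69 and Birc5 (survivin) by 2.54, for a median of -3.09. The 2 chromatin markers parted. Top2a, the topoisomerase that untangles replicated DNA, went from 326, 207 and 265 RPM to 29.0, 25.3 and 23.7 RPM and fell by 3.34 ± 0.31 on the log2 scale (10.1-fold lower, adjusted p = 5.72e-08). Mki67, the gene of the Ki-67 antigen, went from 112, 83.1 and 97.7 RPM to 50.5, 41.9 and 40.8 RPM and fell by 1.13 ± 0.30 on the log2 scale (2.19-fold lower, adjusted p = 0.00286). Both had no overlap between the stages, and the adjusted p of Mki67 was the largest of the 36. The difference between the 2 genes was not tested.

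**Figure D2:**
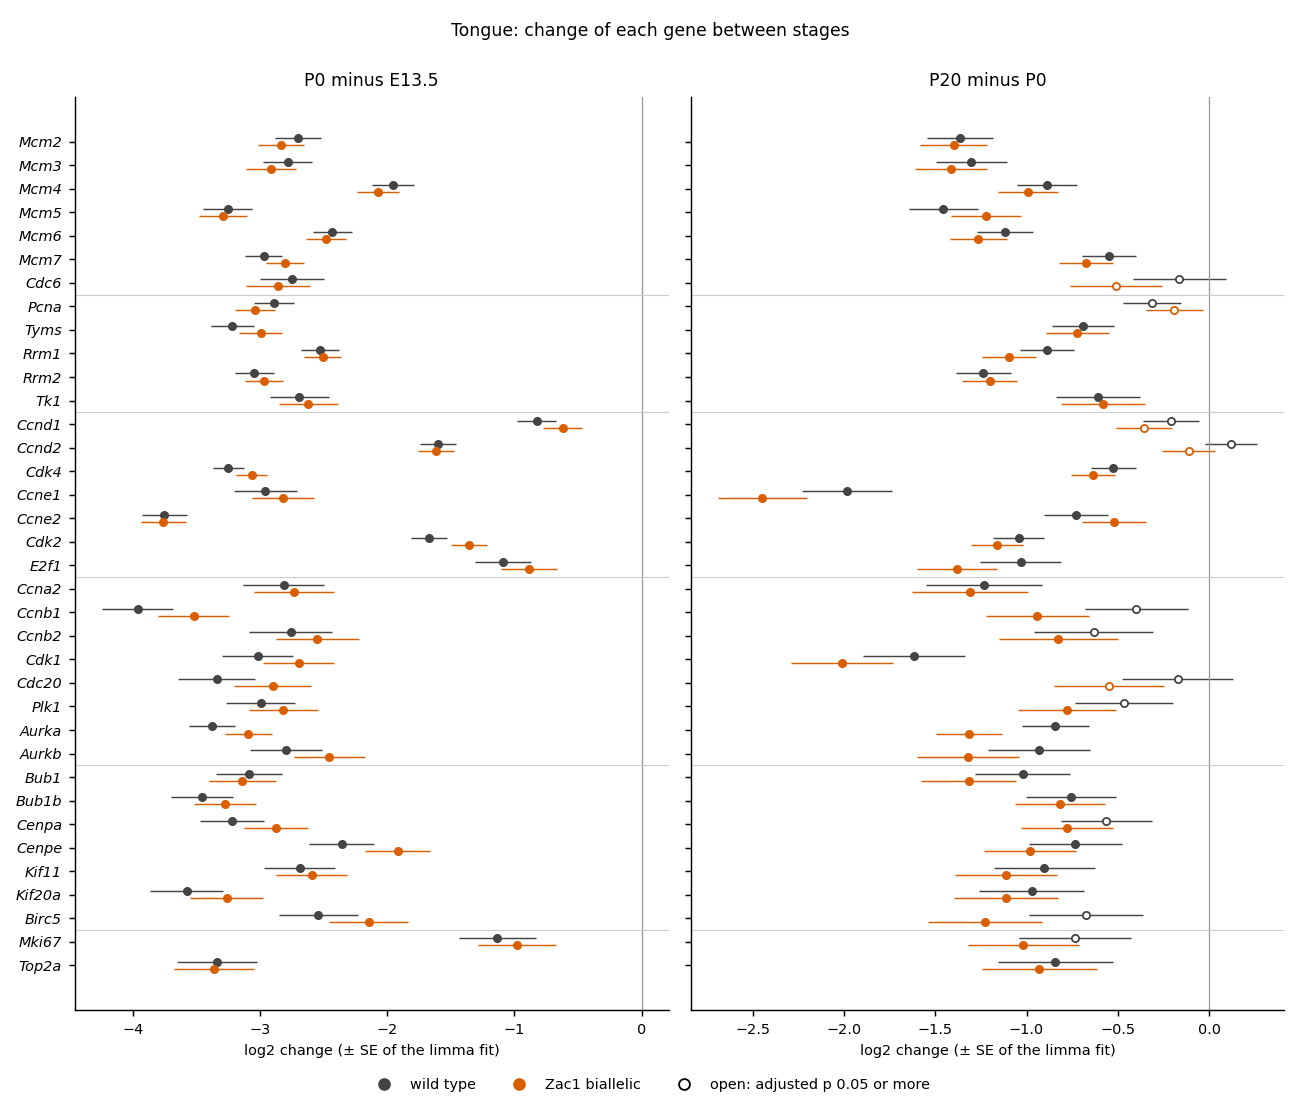
Change of each gene between stages in tongues, as log2 change with the standard error of the limma fit; left P0 minus E13.5, right P20 minus P0, grey wild type and orange biallelic, open symbols for an adjusted p of 0.05 or more. At left all 36 symbols of each genotype are filled and below 0; at right 25 are filled in wild type and 31 in biallelic tongues, and the horizontal scales differ.

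Most members fell again from P0 to P20. In wild-type tongues 25 of 36 were lower and 0 were higher, where 14.9% of all genes were called lower and 31.7% higher; the median over the members was -0.80 and that over all genes 0.22. With the deposited scaling the balance of all genes was 4332 higher to 2034 lower (68.0% of calls higher), against 2794 to 3165 (46.9%) once each library was centred on its median. Under that centring 32 members were lower, and 29 to 32 under each of the other rescalings tried. The P0 libraries enter this contrast and the one from E13.5, so both sets of changes are given side by side and were not compared.

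Ccne1, cyclin E1 (chr7:38097984-38107534, minus strand), fell most: it was at 2.94, 1.96 and 2.78 RPM at P0 and 0.654, 0.618 and 0.639 RPM at P20, and fell by 1.98 ± 0.25 on the log2 scale (3.96-fold lower, adjusted p = 1.17e-05). Its 3 P20 values lay together below every P0 value. In the licensing group Mcm5, at 3.38, 2.94 and 4.03 RPM at P20, fell by 1.46 ± 0.19 on the log2 scale (2.74-fold lower, adjusted p = 1.96e-05), and 6 of the 7 genes were lower, with a median of -1.12. The exception was Cdc6, at 1.90, 0.975 and 1.71 and then 1.24, 1.03 and 1.76 RPM, with an estimate of -0.16 ± 0.25 (adjusted p = 0.62). The stages overlapped for Cdc6.

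Of the nucleotide genes, Rrm2 was at 4.76, 3.52 and 3.70 RPM at P0 and 1.53, 1.58 and 1.96 RPM at P20, and fell by 1.24 ± 0.15 on the log2 scale (2.36-fold lower, adjusted p = 1.04e-05). The other 3 enzymes were also lower, Tk1 by the least (0.61). Pcna, at 6.59, 4.20 and 5.41 and then 4.14, 3.79 and 4.98 RPM, did not pass, with an estimate of -0.31 ± 0.16 (adjusted p = 0.116). In the G1 group Ccne1, Ccne2, Cdk2, Cdk4 and E2f1 were lower and the D cyclins did not pass. Ccnd1, at 19.9, 24.9 and 26.1 RPM at P20, had an estimate of -0.21 ± 0.15 (adjusted p = 0.275). Ccnd2, at 57.9, 65.6 and 54.2 RPM at P20, had 0.12 ± 0.14 (adjusted p = 0.513), with a sign that turned under median centring (-0.10), quantile normalization (-0.13), scaling to listed genes (-0.06) and voom (-0.09). Both D cyclins overlapped between P0 and P20.

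Among the later genes of the cycle, Cdk1, the mitotic kinase, fell most. In the S/G2/M group 4 of 8 were lower, and Cdk1 was at 2.18, 2.15 and 4.28 RPM at P20 and fell by 1.62 ± 0.28 on the log2 scale (3.07-fold lower, adjusted p = 0.000233). Ccnb1 (-0.40 ± 0.28, adjusted p = 0.26), Ccnb2 (-0.63 ± 0.32, adjusted p = 0.121), Cdc20 (-0.17 ± 0.30, adjusted p = 0.664) and Plk1 (-0.46 ± 0.27, adjusted p = 0.168) did not pass. In the spindle group 5 of 7 were lower, led by Bub1 (-1.02), while Cenpa (-0.56 ± 0.25, adjusted p = 0.0741) and Birc5 (-0.67 ± 0.31, adjusted p = 0.086) did not pass. Top2a was lower (-0.84 ± 0.31, adjusted p = 0.0371) and Mki67 did not pass (-0.73 ± 0.30, adjusted p = 0.0583).

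Wild-type P20 library 3 was the highest of the 6 P20 libraries in 31 of the 36 members, and in 17 of 17 members of the S/G2/M, spindle and chromatin groups. The summed S/G2/M level was 13.1, 12.3 and 29.8 RPM in the wild-type P20 libraries, the spindle sum 17.1, 15.1 and 35.5 RPM and the sum of Mki67 and Top2a 32.8, 28.5 and 73.7 RPM. Cdc20 shows the pattern in a single gene, with 2.03, 1.56 and 4.56 RPM in these libraries against 3.002, 2.57 and 2.68 RPM at P0. In the same libraries muscle fibre markers summed to 28561, 27807 and 20874 RPM and oral epithelium markers to 698, 619 and 846 RPM, so library 3 was lowest in the former and highest in the latter; the part of tissue makeup in the result was not tested. Without library 3, 32 of 36 members were called lower, and leaving out any other wild-type library gave 18 to 24. Library 3 held the highest P20 level of most members, so larger falls were bound to follow from leaving it out. The count of 32 is therefore no separate result on the fall.

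The members also fell in the biallelic tongues. From E13.5 to P0, 36 of 36 members were lower, where 37.6% of all genes were called lower and 39.7% higher, with a median of -2.82 beside 0.05 over all genes. Ccne2 was at 34.5, 34.0 and 36.1 RPM at E13.5 and 2.52, 2.60 and 2.58 RPM at P0, and fell by 3.76 ± 0.18 on the log2 scale (13.6-fold lower, adjusted p = 1.78e-11). Ccnb1 was at 35.9, 32.6 and 29.5 and then 3.58, 2.86 and 2.22 RPM, and fell by 3.52 ± 0.28 on the log2 scale (11.5-fold lower, adjusted p = 8.03e-09). The stages did not overlap for either gene. Ccnd1, at 37.7, 35.1 and 47.8 and then 26.4, 25.1 and 26.2 RPM, again changed least and fell by 0.62 ± 0.15 on the log2 scale (1.54-fold lower, adjusted p = 0.00141), and Mki67, at 83.9, 87.4 and 124 and then 67.4, 41.1 and 42.8 RPM, fell by 0.98 ± 0.30 on the log2 scale (1.97-fold lower, adjusted p = 0.00771).

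The biallelic tongues had 31 of 36 members lower from P0 to P20, where 17.3% of all genes were called lower and 29.9% higher, with a median of -1.004 beside 0.18 over all genes. Leaving out 1 biallelic library of these stages gave 24 to 29 members lower. The balance of all genes was 4088 higher to 2358 lower (63.4% of calls higher), against 2889 to 3480 (45.4%) with median centring, under which 35 members were lower; 32 to 35 were lower under the other rescalings. Ccne1, at 3.91, 2.29 and 1.76 RPM at P0 and 0.489, 0.389 and 0.510 RPM at P20, fell by 2.45 ± 0.25 on the log2 scale (5.45-fold lower, adjusted p = 1.28e-06), and Cdk1, at 14.6, 7.56 and 7.23 and then 2.46, 2.76 and 1.79 RPM, fell by 2.01 ± 0.28 on the log2 scale (4.03-fold lower, adjusted p = 3.01e-05). The stages were apart for both, with biallelic P0 library 1 the highest in Ccne1 and Cdk1. The 5 that did not pass were Ccnd1 (-0.36 ± 0.15, adjusted p = 0.0641), Cdc6 (-0.51 ± 0.25, adjusted p = 0.109), Cdc20 (-0.55 ± 0.30, adjusted p = 0.147), Pcna (-0.19 ± 0.16, adjusted p = 0.337) and Ccnd2 (-0.11 ± 0.14, adjusted p = 0.544). None of the 5 passed in wild type either. Ccnb1 was called in the biallelic tongues and not in the wild type, and the difference between those changes, -0.54 ± 0.40, did not pass (adjusted p = 1.0).

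**Figure D3:**
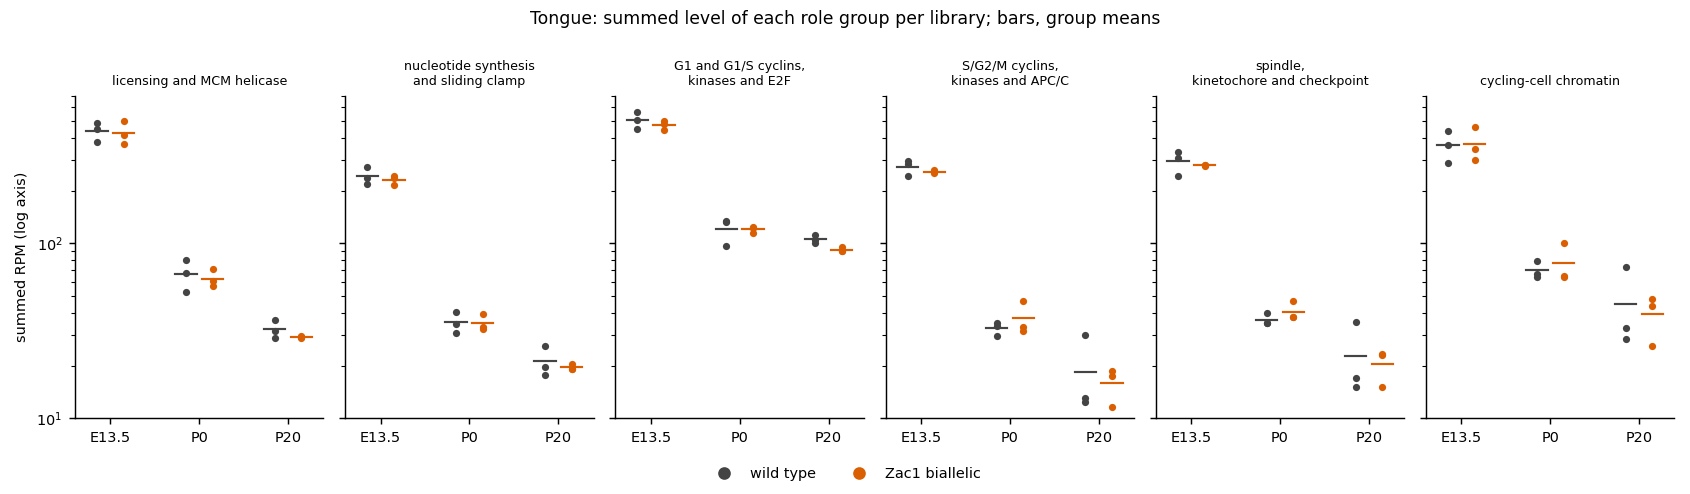
Summed level of each role group in each tongue library, in RPM on a log axis, by stage; grey wild type and orange biallelic, points are libraries and bars the group means. Each sum drops between E13.5 and P0, and wild-type P20 library 3 lies above the other two in the S/G2/M, spindle and chromatin panels, at 29.8 RPM against 13.1 and 12.3 RPM for S/G2/M.

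Other genes of the same processes were counted from 4 lists that held no member. Over all genes in wild type, 39.9% were called lower and 37.9% higher from E13.5 to P0. From P0 to P20 these shares were 14.9% and 31.7%. Of 38 further DNA replication genes tested, 38 were lower from E13.5 to P0 in wild type (median -2.59); the largest changes were in Gmnn, the licensing inhibitor geminin (-3.70 ± 0.22), and Rpa3, a subunit of the single-strand binding protein (-3.40 ± 0.22). Of the same 38, 21 were lower from P0 to P20 (median -0.53), led by Gins2 of the replicative helicase (-1.58) and Orc1 of the origin recognition complex (-1.57). Of 46 further mitosis genes, 46 were lower from E13.5 to P0 (median -2.54), led by the condensin subunit Ncapd2 (-5.60 ± 0.15) and the kinetochore gene Spc24 (-4.15 ± 0.44). Of these 46, 22 were lower from P0 to P20 (median -0.66), with Cks1b (-1.47) and Cenpk (-1.38) the largest, and 1 was higher, Pttg1 (1.47 ± 0.17), the gene of securin.

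The lists that hold regulators on both sides had calls in both directions. Their counts are small and were not tested against the shares of all genes, 39.9% lower and 37.9% higher from E13.5 to P0. From P0 to P20 the shares were 14.9% lower and 31.7% higher. Of 14 transcription factors and G1 regulators, 7 were lower from E13.5 to P0, with Mycn (-4.06 ± 0.42) and the phosphatase Cdc25a (-1.99 ± 0.17) the largest, and 2 were higher, Cdk6 (0.61 ± 0.15) and the third D cyclin, Ccnd3 (0.56 ± 0.16). Ccnd3 stood at 33.3 ± 1.32 RPM (SD, n = 3) at E13.5 and 49.2 ± 4.79 RPM at P0 in wild type. Of 17 genes that brake the cycle, 4 were higher at P0 and 11 lower (median -0.73). Tob1 (2.90 ± 0.17), an antiproliferative protein, and Cdkn1a (2.79 ± 0.24), the kinase inhibitor p21, rose most, and Ccng2 (-2.14 ± 0.16) and Cdkn2b (-1.59 ± 0.34) fell most. Cdkn1a went from 8.70 ± 2.83 to 58.3 ± 1.66 RPM. From P0 to P20, 3 brakes were higher, Cdkn2b (1.92 ± 0.34), Cdkn1b (0.62) and Tob1 (0.56), and 3 lower, with Cdkn1c, the kinase inhibitor p57, falling from 236 ± 27.9 to 12.6 ± 1.13 RPM (-4.22 ± 0.22). Of the 14 regulators, 5 were lower from P0 to P20, with Mycn (-2.22) and E2f7 (-1.33) the largest, and Cdk6 was higher (0.51). In the biallelic tongues 38 of 38 replication, 46 of 46 mitosis, 6 of 14 regulator and 11 of 17 brake genes were lower from E13.5 to P0. From P0 to P20, 25, 33, 7 and 3 of them were lower, and 4 brakes were higher in each interval. Of all genes in biallelic tongues, 37.6% were lower and 39.7% higher from E13.5 to P0, and 17.3% and 29.9% from P0 to P20.

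**Figure D4:**
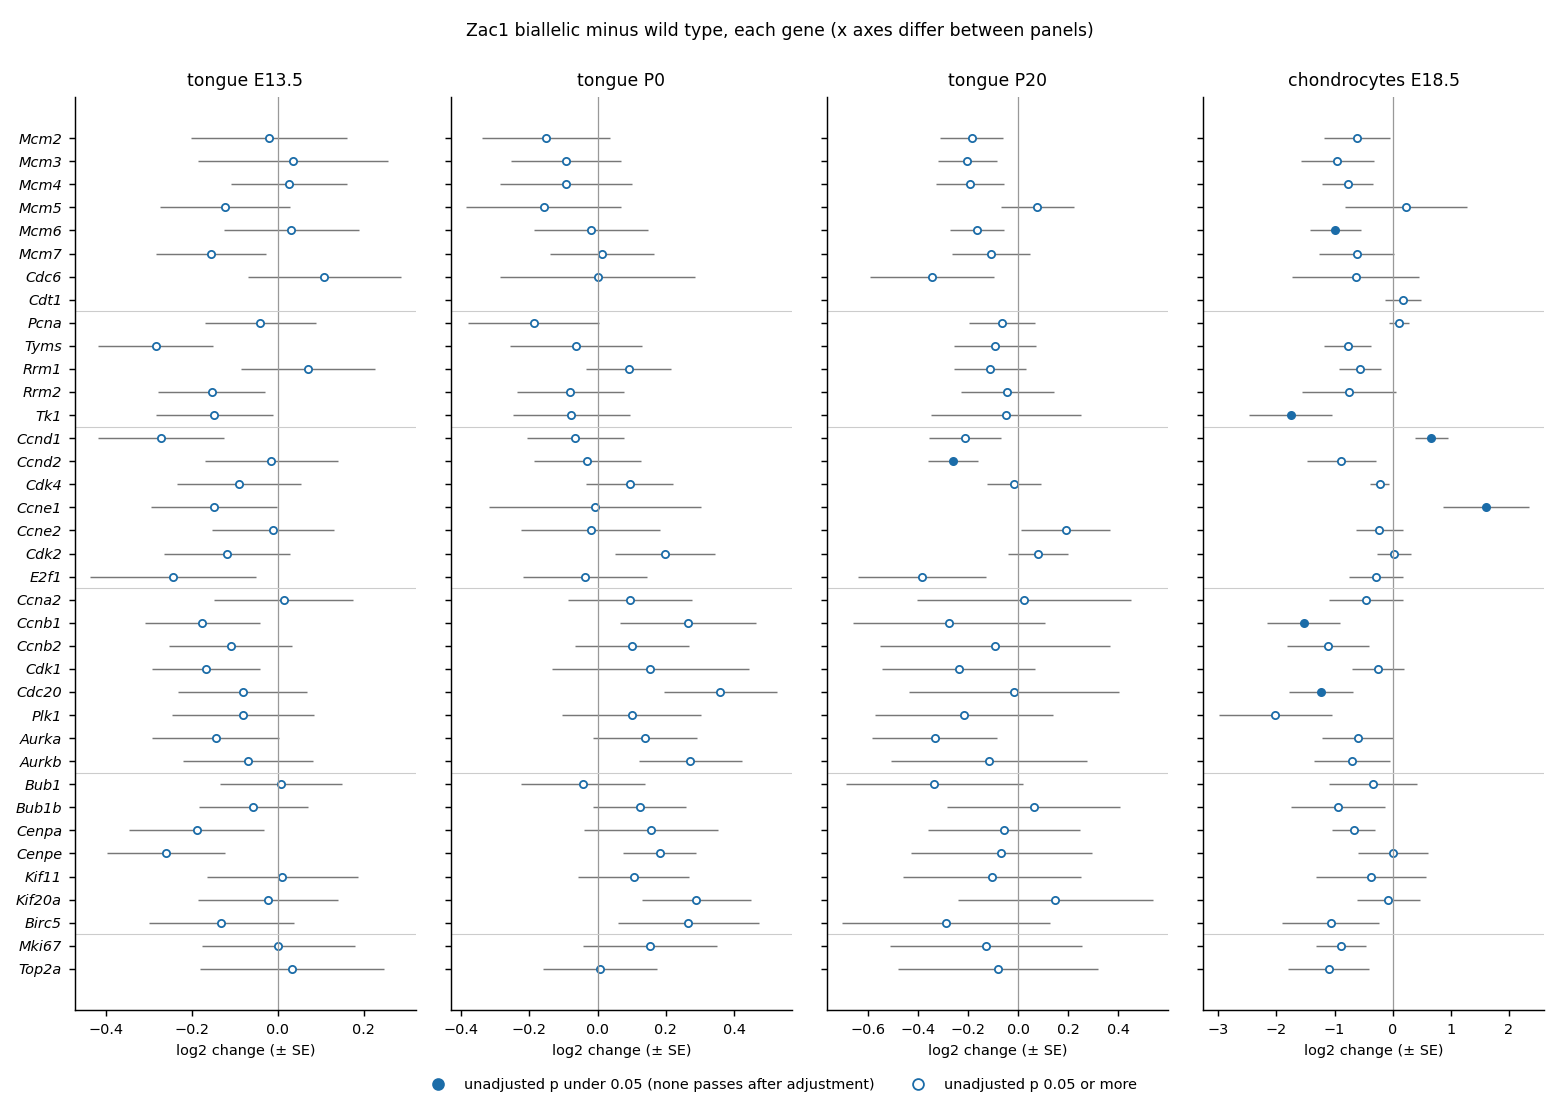
Biallelic minus wild type for each gene, as log2 change with its standard error, in the 3 tongue stages and the chondrocytes; filled symbols have an unadjusted p under 0.05 and none passed after adjustment. The horizontal scales differ: tongue estimates lie between -0.39 and 0.36, and chondrocyte estimates between -2.02 and 1.61.

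The study's own comparison, biallelic against wild type, gave no call for any member in the tongues. At E13.5, 0 of 36 members passed where 0 of 11869 genes did (0%), 0 members had an unadjusted p under 0.05 against 3.25% of all genes, and 0 passed with voom. The median over the members was -0.08, with 10 of 36 above 0 and standard errors of 0.12 to 0.22; it was -0.16 without wild-type library 2 and -0.0027 without wild-type library 1. Tyms was lowest in p, at 37.6, 38.7 and 37.9996 RPM in the biallelic libraries against 53.2, 40.3 and 46.6 RPM in wild type, with an estimate of -0.28 ± 0.13 (adjusted p = 0.992). It was the 1 member whose genotypes did not overlap, where 10.1% of all genes did not. Cenpe (-0.26 ± 0.14, adjusted p = 0.992) and Ccnd1 (-0.27 ± 0.15, adjusted p = 0.992) followed, and both overlapped. Of the 6 genes given in every comparison, the other five had these estimates: Mki67 at 0.00 ± 0.18, Top2a at 0.03 ± 0.21 (-0.07 with quantile normalization), Mcm5 at -0.12 ± 0.15, Ccnb1 at -0.18 ± 0.13 and Ccnd2 at -0.01 ± 0.16 (0.05 with median centring and 0.04 with voom).

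At P0, 0 of 36 members passed, where 0.016% of genes did, 0 had an unadjusted p under 0.05 against 3.3% of genes, and 0 passed with voom. The median was 0.05, with 20 of 36 above 0, but it was -0.075 without biallelic library 1, -0.021 without wild-type library 2 and up to 0.14 without wild-type library 1. Estimates were above 0 for 8 of 8 S/G2/M genes (median 0.15) and below 0 for 6 of 7 licensing genes (median -0.09). Those 6 include Cdc6 at -0.0002 ± 0.29 and Mcm6 at -0.02 ± 0.17, which are at about 0. The genes of a role group vary together between libraries, and the signs were not tested against those of all genes. Cdc20 was at 4.22, 3.26 and 3.16 RPM in the biallelic libraries and 3.002, 2.57 and 2.68 RPM in wild type, with an estimate of 0.36 ± 0.17 (adjusted p = 1.0). Kif20a (0.29 ± 0.16, adjusted p = 1.0) and Aurkb (0.27 ± 0.15, adjusted p = 1.0) followed. The genotypes did not overlap for 3 of 36 members, Cdc20, Aurkb and Cenpe, where 8.9% of all genes did not overlap. Biallelic library 1 was the highest of the 6 in 14 of 17 members of the S/G2/M, spindle and chromatin groups, with a summed S/G2/M level of 47.0 RPM against 33.3 and 31.5 RPM in its fellow libraries, and wild-type library 2 was the lowest in 24 of 36 members. Of those 6 genes Ccnb1 was at 0.27 ± 0.20, Mki67 at 0.15 ± 0.20, Mcm5 at -0.16 ± 0.23, Ccnd1 at -0.07 ± 0.14, Ccnd2 at -0.03 ± 0.16 and Top2a at 0.01 ± 0.17, and the last was below 0 under median centring (-0.03), quantile normalization (-0.04), listed genes (-0.01) and voom (-0.04).

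At P20, 0 of 35 members tested passed where 0% of 12693 genes did, 1 had an unadjusted p under 0.05 against 2.25% of genes, and 0 passed with voom; Ccne1 fell under the 1 RPM needed in 3 libraries. The median was -0.11, with 6 of 35 above 0, but it was 0.11 without wild-type library 3 and ran down to -0.26 without wild-type library 2. Ccnd2 was at 48.5, 50.3 and 48.8 RPM in the biallelic libraries and 57.9, 65.6 and 54.2 RPM in wild type, apart from each other, with an estimate of -0.26 ± 0.10 (adjusted p = 1.0) and an unadjusted p of 0.033. Mcm3 (-0.20 ± 0.12, adjusted p = 1.0) also did not overlap, which makes 2 of 35 members against 6.89% of all genes, and Mcm6 (-0.17 ± 0.11, adjusted p = 1.0) was next in p. The estimates were -0.13 ± 0.38 for Mki67, -0.08 ± 0.40 for Top2a, 0.07 ± 0.15 for Mcm5, -0.28 ± 0.38 for Ccnb1 and -0.21 ± 0.14 for Ccnd1. The mitotic genes carry the widest errors here, and wild-type library 3 is the high one in them. Biallelic library 3 was above the median of the P20 libraries in 0 of 17 members of the S/G2/M, spindle and chromatin groups, and lowest in 8. Without biallelic library 3 Mki67 was at 0.16 and Top2a at 0.17, and without wild-type library 3 they were at 0.28 and 0.38.

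Averaged over the 3 stages, 0 of 36 members passed where 0.022% of genes did, and 0 had an unadjusted p under 0.05 against 2.83% of genes. The median was -0.06, with 10 of 36 above 0; leaving out 1 library gave -0.11 (without wild-type P20 library 2) to 0.025 (without wild-type P20 library 3). Ccnd1 was lowest in p at -0.18 ± 0.09 (adjusted p = 1.0), then E2f1 at -0.22 ± 0.13 (adjusted p = 1.0) and Tyms at -0.15 ± 0.10 (adjusted p = 1.0). The genotype effect was called different between stages for no member by the interaction test: from E13.5 to P0 the median difference was 0.16 with 25 of 36 above 0, from P0 to P20, with the P0 libraries shared, it was -0.17 with 5 of 36 above 0. Leaving out 1 library gave 0.019 (without biallelic P0 library 1) to 0.25 (without wild-type P0 library 1) for the first, and -0.35 (without wild-type P20 library 2) to 0.044 (without wild-type P20 library 3) for the second. By the same test 0 members passed in either where 0% of genes did, and 0 had an unadjusted p under 0.05 against 5.61% and 1.35% of genes. In the 4 further lists no gene passed in a tongue genotype contrast. The gene of smallest p in each was Cdc7 (-0.36), Cdca5 (-0.49), Ccnd3 (0.40) and Btg2 (-0.37) at E13.5, Orc1 (-0.35), Cenpf (0.31), Ccnd3 (0.24) and Cdkn1a (0.18) at P0, and Slbp (0.32), Ncapd2 (0.16), Myc (-0.45) and Cdkn1b (0.21) at P20, in the order replication, mitosis, transcription factors and brakes.

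In the sorted chondrocytes, 0 of 37 members passed where 0% of 11127 genes did, and 0 passed with voom. An unadjusted p under 0.05 was reached by 6 of 37 members against 11.7% of all genes. The median over the members was -0.62, a 1.53-fold lower level in the biallelic animals, with 7 of 37 above 0 and a median of -0.11 over all genes; standard errors ran from 0.17 to 1.09. The genotypes overlapped in every member (0 of 37 apart, where 0.872% of all genes were). The role medians were -0.62 for licensing, -0.75 for nucleotide synthesis, -0.22 for G1, -0.90 for S/G2/M with 0 of 8 above 0, -0.37 for the spindle and -0.99 for chromatin.

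No difference passed the threshold once p was adjusted over all genes tested. Tk1 (chr11:117815526-117826092, minus strand) was at 0.765 (lowest), 1.70 (median) and 2.64 RPM (highest) in the 6 biallelic animals and at 11.9, 15.02, 10.3, 1.39 and 1.36 RPM in wild-type animals 7 to 11, with an estimate of -1.76 ± 0.71 (adjusted p = 0.424) and an unadjusted p of 0.0257, the smallest of the members. Wild-type animals 7, 8 and 9 lay above every biallelic one and animals 10 and 11 within their range. Ccnb1, cyclin B1, was at 1.62 (lowest), 2.88 (median) and 12.05 RPM (highest) in biallelic animals and 13.4, 11.9, 32.1, 5.33 and 2.72 RPM in wild type, with -1.53 ± 0.63 (adjusted p = 0.424). Mki67 was at 7.85 (lowest), 12.8 (median) and 23.4 RPM (highest) in biallelic animals and 32.0, 35.4, 47.9, 14.3 and 8.17 RPM in wild type, and Top2a at 3.08 (lowest), 13.4 (median) and 58.0 RPM (highest) and 46.3, 54.9, 55.6, 10.3 and 8.17 RPM. Their estimates were -0.89 ± 0.43 (adjusted p = 0.441) and -1.10 ± 0.70 (adjusted p = 0.509). For Mki67 animals 7, 8 and 9 were again above all biallelic animals, while the highest Top2a value belonged to biallelic animal 5.

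Of the 6 members with an unadjusted p under 0.05, the others with an estimate below 0 were Mcm6 (-0.99 ± 0.44, adjusted p = 0.426) and Cdc20 (-1.23 ± 0.56, adjusted p = 0.426), the activator of the anaphase-promoting complex. Plk1, a mitotic kinase, had the estimate farthest below 0 (-2.02 ± 0.98, adjusted p = 0.441). Its mean levels were 1.66 ± 2.67 RPM (SD) in biallelic and 4.09 ± 3.07 RPM in wild-type animals. These are not far above the 1.02 RPM that 3 reads are worth in the shallowest sample, so low counts weigh on this estimate. Mcm5 was at 1.11 (lowest), 4.97 (median) and 29.6 RPM (highest) in biallelic animals and 20.4, 8.80, 24.2, 1.52 and 0.340 RPM in wild type, where the last value is below the limit of 3 reads, with 0.24 ± 1.05 (adjusted p = 0.933) and a sign that turned with voom (-0.40) and with log2(RPM + 1) (-0.03). The estimates of cyclin D2 and cyclin D1 had opposite signs, and neither passed. Ccnd2 was at 3.41 (lowest), 6.71 (median) and 12.9 RPM (highest) in biallelic animals and 24.0, 11.7, 37.8, 12.9 and 2.04 RPM in wild type (-0.88 ± 0.60, adjusted p = 0.525). Ccnd1 was at 7.72 (lowest), 9.05 (median) and 11.5 RPM (highest) and 3.83, 5.35, 7.24, 8.24 and 5.10 RPM (0.67 ± 0.29, adjusted p = 0.426), so its biallelic values reached higher but overlapped. Ccnd1 and Ccne1 were the members with an estimate above 0 and an unadjusted p under 0.05, at 0.0334 and 0.0457. Ccne1 was at 3.21 (lowest), 3.79 (median) and 5.28 RPM (highest) and 2.42, 0, 0.724, 3.17 and 4.42 RPM (1.61 ± 0.74, adjusted p = 0.426); animal 8 had 0 reads, which allows a level of up to 0.518 RPM by counting error alone, and its place on the log2 scale is set by the authors' value for 0 reads. Pcna, the sliding clamp, was at 49.1 (lowest), 56.3 (median) and 70.4 RPM (highest) and 48.3, 41.8, 57.5, 53.4 and 67.4 RPM (0.11 ± 0.17, adjusted p = 0.779), with the genotypes interleaved. Cdt1, the licensing factor, was at 13.4 (lowest), 15.5 (median) and 32.5 RPM (highest) and 29.6, 16.9, 12.2, 13.1 and 9.87 RPM (0.19 ± 0.31, adjusted p = 0.808).

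**Figure D5:**
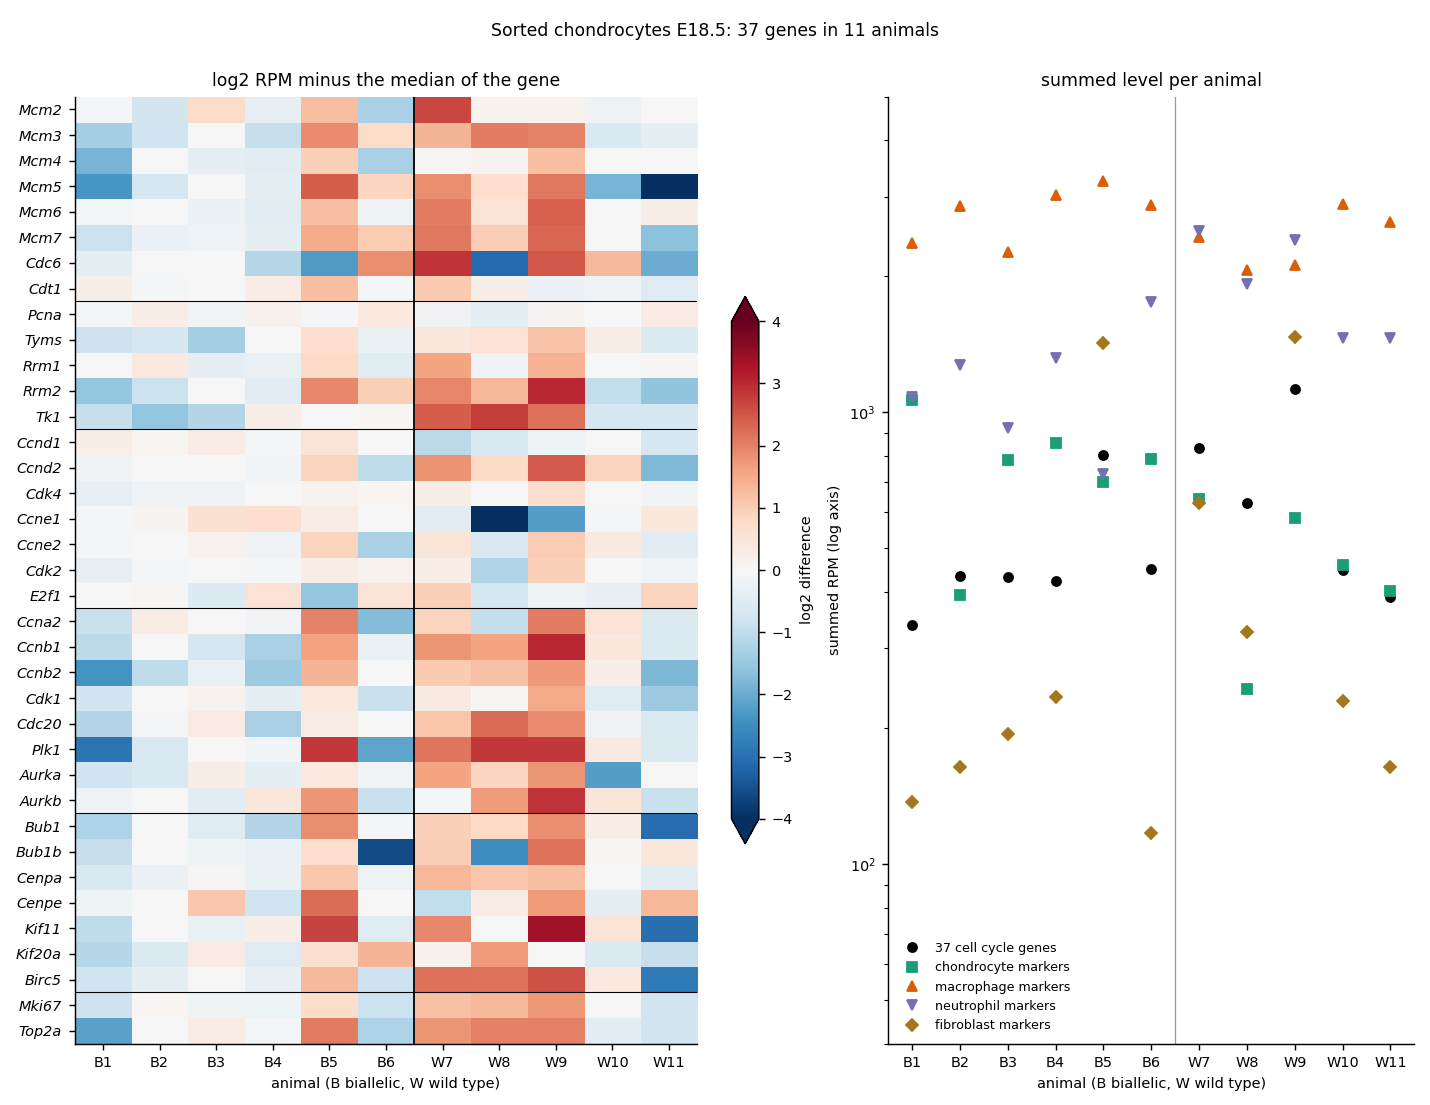
Left, log2 RPM of each of the 37 genes in each sorted sample minus the median of the gene over 11 animals, as colour (red above, blue below), B for biallelic and W for wild type; right, summed RPM of the genes and of marker lists per animal on a log axis. Animals W7, W8, W9 and B5 are red in most rows, and their sums of the 37 genes, 833, 628, 1127 and 803 RPM, are the 4 highest of the 11.

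High levels fell in particular animals of both genotypes. The 37 genes summed to 338, 434, 431, 423, 803 and 449.9 RPM in biallelic animals 1 to 6 and 833, 628, 1127, 447 and 390.0 RPM in wild-type animals 7 to 11. Animal 9 was the highest of the 11 in 20 of 37 members, biallelic animal 5 in 6, animal 7 in 5 and animal 8 in 4. Fibroblast markers summed to 137, 164, 194, 234, 1427 and 117 RPM in biallelic animals 1 to 6 and 629.6, 326, 1467, 229 and 164 RPM in animals 7 to 11, so the same 4 animals were the highest in this list, all 6 of whose genes were detected. Neutrophil markers summed to 1081, 1269, 921, 1321, 731 and 1754 RPM and 2518, 1924, 2406, 1462 and 1459 RPM, highest in animals 7 and 9, with Ly6g at 0 in every wild-type animal. Chondrocyte markers summed to 1066, 395, 783, 855, 699 and 788 RPM and 644, 243, 583, 459 and 402 RPM. The part of these cell types, and of the lower depth of the wild-type libraries, in the members' levels was not tested.

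Without animals 7, 8 and 9, which also stood apart on the first principal component, the median over the members was 0.15 and the estimates turned to 0.13 for Tk1, 0.20 for Mki67, 0.40 for Top2a and 0.37 for Ccnd2. That fit keeps animals 10 and 11 as the wild type. Animals 7, 8 and 9 had the highest sums of the members in the wild type, and biallelic animal 5, also high, was kept. Leaving out animals 7, 8 and 9 was therefore bound to raise the estimates as a whole, so the turn is no separate result on genotype. Leaving out 1 animal at a time gave medians from -0.94 (without animal 11) to -0.24 (without animal 9), and -0.33 without animal 7. In the further lists no gene passed in the chondrocytes; the genes of smallest p were Dnmt1 (0.57), Cdca8 (-1.44), Tfdp1 (-0.97) and Rbl1 (0.69).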

How the data were processed

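RNA was sequenced from 18 tongue libraries and 11 samples of sorted chondrocytes (33 labelled samples, 29 columns of values). The authors deposited log2 RPM per gene, the reads of a gene scaled to the library's total. Per the submitters' processing notes, reads were trimmed with Trim Galore 0.4.2 and aligned to GRCm38 with TopHat2 2.1.0 or HISAT2, the latter named for the chondrocytes; the sources used here name no counting tool and no strand setting. A gene with 0 reads stands at 0.9 reads in the deposited values; below 1000 reads, 100.0% of values were whole reads within 0.05. How the 2 labelled libraries of biallelic animals 1 to 4 became 1 column is not given either.

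Genotypes were compared within each table with limma 3.58.1 (R 4.3.3, mean-variance trend) on the deposited values, keeping genes that reached 1 RPM in 3 of 6 tongue libraries or in 5 of 11 animals. Stages, the average over stages and the differences of genotype effects came from 1 fit of all 18 tongue libraries (1 RPM in at least 3). P-values were adjusted by Benjamini-Hochberg over all genes tested, with a threshold of 0.05, and errors are standard errors of the fit. The members and lists were chosen with earlier results of these data known. Every member is accounted for; those named with values are, for stages, the largest and smallest change of each role and those not past the threshold; for genotype, those past it or the 3 of smallest p, and Mki67, Top2a, Mcm5, Ccnb1, Ccnd1 and Ccnd2 throughout; in other lists the smallest p or the 2 largest changes. Other genes were named after their values were seen. Alternatives were median centring, quantile normalization, scaling to listed genes, voom, log2(RPM + 1), no filter, a filter of 5 RPM, a robust trend, a replicate block and leaving out libraries. On simulated data the fit recovered 100% of changes of 2 or 3 on the log2 scale and 56% (E13.5 table), 86% (chondrocytes) and 66% (all tongues) of changes of 1, but 8%, 10% and 2% of changes of 0.5. The simulated counts had 1 fixed dispersion of 0.05 for every gene, and only genes with a mean above 5 RPM were changed. In the real chondrocytes the standard errors of the members ran from 0.17 to 1.09, so these shares do not give the recovery there. The P0 and P20 tables were not simulated on their own, and many members lay under 5 RPM at those stages. The shares do not give the recovery in the genotype comparisons at P0 and P20 either. Intervals and limits from reads cover counting error only.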

Additional observations from a re-analysis of the deposited data

Results flagged for a closer look

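In the sorted chondrocytes, 76 groups of values were examined (each gene and the sum of the 37, in each genotype), and in 7 of them the highest or lowest animal lay further from the rest than Dixon's 95% limit; chance alone gives about 1 in 20. Biallelic animal 5 was the highest in 4 of the 7. Its sum of the 37 genes was 803.2 RPM, where the other biallelic animals had 338.3 to 449.9 RPM. Mcm6, a helicase subunit, stood at 30.1 RPM in it against 9.75 to 13.1 RPM, Cdt1, the licensing factor, at 32.5 RPM against 13.4 to 17.7 RPM, and Kif11, the bipolar spindle kinesin, at 17.9 RPM against 1.38 to 3.25 RPM. The same animal had the highest fibroblast marker sum of its genotype, and the part of that in these levels was not tested.

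Wild-type animal 7 had Mcm2 at 28.1 RPM, where the other wild-type animals had 3.8 to 4.92 RPM. Wild-type animal 9 had Mcm4 at 30.1 RPM against 12.9 to 14.2 RPM. The single low value was Bub1b, a checkpoint gene, at 0.569 RPM in biallelic animal 6, where the other biallelic animals had 3.6 to 10.8 RPM.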

How the results depend on the processing

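No member was called by genotype under any alternative that was run, and the 36 falls from E13.5 to P0 were called under each. The count of all genes called by genotype at P0, 2 as reported, was 1 with median centring, quantile normalization, listed-gene scaling, voom or no filter, 0 with a robust trend, and 0 to 4 on leaving out a library. Averaged over stages, 3 genes became 3 to 9 on leaving out a library. The difference of the genotype effect between E13.5 and P0 gave 0 to 8 genes, and that between P0 and P20 gave 0 to 1, and 1 with median centring, listed-gene scaling or voom. With no filter the stage contrasts called 20373 and 15070 genes in wild type (P0 minus E13.5, P20 minus P0) and 19861 in biallelic tongues (P0 minus E13.5). The members' median from E13.5 to P0 was -2.67 with median centring and -2.63 with log2(RPM + 1) in wild type, and -2.96 with quantile normalization and -2.58 with log2(RPM + 1) in biallelic tongues. In biallelic tongues from P0 to P20 it was -1.20, -1.23 and -0.83 under those 3 settings.

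Estimates that changed sign were small or uncertain, and the cause was not tested. Top2a turned to -0.072 at E13.5 (quantile) and to -0.025, -0.043, -0.014 and -0.037 at P0 (median centring, quantile, listed genes, voom). Ccnd2 turned to 0.049 and 0.043 at E13.5 (median centring, voom) and, from P0 to P20 in wild type, to -0.098, -0.13, -0.060 and -0.092. Averaged over stages Mki67 turned to -0.011 (quantile) and Top2a to 0.0011 (median centring). In the chondrocytes Mcm5 turned to -0.40 (voom) and -0.027 (log2(RPM + 1)). Without wild-type animals 7, 8 and 9 Tk1 turned to 0.13, Mki67 to 0.20, Top2a to 0.40 and Ccnd2 to 0.37. Those animals had the highest sums of the members in the wild type, so a rise was bound to follow from leaving them out. Leaving out 1 library moved the genotype estimates at E13.5 from -0.18 to 0.11 for Mki67, -0.14 to 0.19 for Top2a and -0.12 to 0.084 for Ccnd2. At P0 the ranges were -0.074 to 0.28 for Mki67, -0.17 to 0.11 for Top2a, -0.37 to 0.043 for Mcm5, -0.22 to 0.037 for Ccnd1 and -0.20 to 0.061 for Ccnd2. At P20 they were -0.37 to 0.28 for Mki67, -0.37 to 0.38 for Top2a, -0.035 to 0.19 for Mcm5 and -0.64 to 0.12 for Ccnb1. For the average they were -0.072 to 0.14 for Mki67, -0.11 to 0.14 for Top2a and -0.18 to 0.071 for Ccnb1. Chondrocyte Mcm5 ran from -0.71 to 0.83. In wild type from P0 to P20, Ccnd2 ran from -0.047 to 0.21, Cdc6 from -0.46 to 0.022 and Cdc20 from -0.62 to 0.15.

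Same-numbered libraries of the genotypes did not deviate together: the correlations over genes were 0.159, 0.042 and 0.137 at E13.5, -0.343, -0.486 and 0.362 at P0, and -0.314, -0.288 and -0.647 at P20. With the replicate block 0 genes were called by genotype at P0, and 25 members in wild type and 29 in biallelic tongues were lower from P0 to P20. Depth limits the chondrocytes most, where 3 reads are worth up to 1.02 RPM.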
